A study of Macaca mulatta with 20 samples.

Results

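Corpora lutea of the mid-late luteal phase were compared with corpora lutea of the mid luteal phase in normally cycling rhesus macaques, 4 arrays against 4, out of the 20 arrays of a study that followed the gland through 5 stages. The 8 arrays were chosen by the stage in their titles. The 4 mid glands were taken on days 7 to 8 after the midcycle surge of luteinizing hormone (LH), when progesterone output peaks, and the 4 mid-late glands on days 10 to 12, when output is still substantial but luteal regression is near. No animal received a treatment in the labels, day 1 was set by the fall of serum estradiol, and the ages of the animals are not given in the sources used here. Each gland was removed at surgery, frozen and hybridised to 1 Affymetrix rhesus array, and the study counts the glands as biological replicates. Arrays of 3 other stages also entered the fit: early glands from days 3 to 5, late glands from days 14 to 16 and glands called very-late from days 18 to 19.

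The corpus luteum forms from the ruptured follicle and makes the progesterone that prepares the uterus for pregnancy. Its steroid-making cells import cholesterol, STAR carries it into the mitochondria, and a chain of cytochromes and dehydrogenases turns it into progesterone and, in primates, into androgen and estrogen as well. LH drives this through cyclic AMP. Without a conception the primate gland first stops making progesterone and is later dismantled, with invasion by macrophages. The glands were measured whole, so fewer cells of a type and less RNA per cell cannot be told apart in any value given here.

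Values are log2 values of single probe sets. A difference is the mid-late mean minus the mid mean, so 1 unit is a 2-fold change. A probe set is said to have passed the test when its adjusted p (limma on 52707 probe sets, Benjamini-Hochberg) was under 0.05. A gene with several probe sets is represented by its brightest one, and 14132 genes were measured. The other probe sets of a gene could show smaller or opposite differences, and they are given for some genes only. The 674 probe sets for viral genomes served as background, and 95% of their means lay under 4.30.

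STAR, FDX1 and HSD3B2, genes of steroid synthesis, were bright at both stages. STAR, which delivers cholesterol to the first enzyme of steroid synthesis, stood at 13.26 ± 0.10 (SD, n = 4) in the mid glands and 13.34 ± 0.13 (SD, n = 4) in the mid-late glands. Of 9 measured markers of oocytes and follicles, 5 were at background: AMH, BMP15, DAZL, NOBOX and FIGLA. The rest were not, among them AMHR2 (means of 5.40 at mid and 5.55 at mid-late) and CYP17A1 (8.11 and 7.46), which is also a gene of steroid synthesis.

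The arrays of both stages were much alike, with 1 exception in their mitochondrial transcripts. Pairs of mid arrays correlated over probe sets at 0.983 to 0.991, pairs of mid-late arrays at 0.989 to 0.9955, and mid with mid-late arrays at 0.980 to 0.994. The mean of 6 probe sets for the mitochondrial genome was 7.67 to 8.93 in the mid arrays. In the mid-late arrays it was 8.12 in replicate 1 and up to 12.45 in the other 3. Over all 20 arrays the measure split into 7 low arrays (7.02 to 8.93) and 13 high ones (11.50 to 12.45), and the low ones were all 4 mid arrays, mid-late replicate 1, and 1 array each from the early and the very-late glands. An exact two-sided permutation test of mid-late against mid gave p = 0.0857 for this measure (adjusted p = 0.429 over 5 array measures, smallest p possible 0.0286). No label or header ties the split to a batch. Within the 8 arrays stage and split cannot be told apart except through mid-late replicate 1. It was the only mid-late array on the side of the mid arrays. For this reason some results are also given without that array or with a term for the split. A difference given without either may still move with them. The term was fitted over all 20 arrays, so the low early and very-late arrays enter it as well. The split was carried by 4 of the 6 probe sets, with mid-late minus mid differences of 3.21 to 5.38, while the other 2 differed by 0.21 and 0.48.

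**Figure D1:**
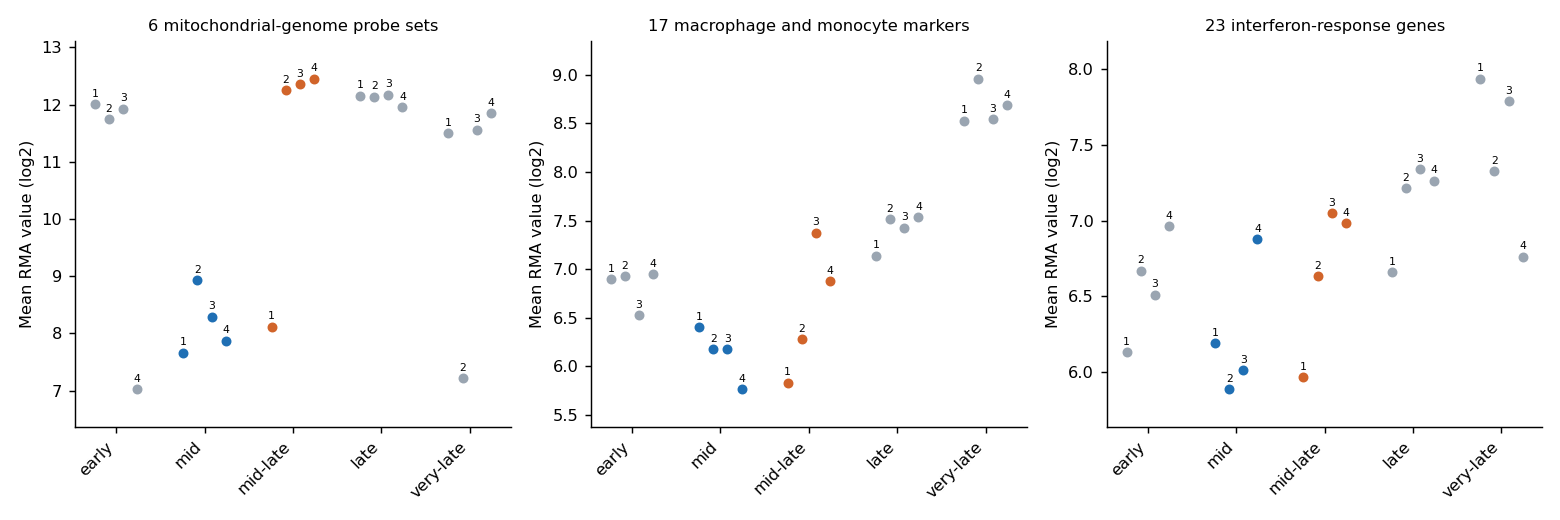
Mean log2 value of 3 groups of probe sets in each of the 20 arrays, by stage (x axis), with mid in blue, mid-late in orange, the other stages in grey and the replicate number above each point. Mid-late replicate 1 lies with the mid arrays in the mitochondrial probe sets (8.12), the macrophage markers (5.83) and the interferon-response genes (5.97). The other 3 mid-late arrays are higher than replicate 1 in each. Mid-late replicate 2 is still within the mid range for the macrophage markers (6.28) and the interferon-response genes (6.64).

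Few transcripts separated the stages. Of 52707 probe sets, 6 passed the test (0.0114%), all lower at mid-late, and 0 were higher. They were 3 probe sets of HIPK2, 1 of NKAIN1 and 2 with no gene symbol. By gene, 2 of 14132 passed (0.0142%). At an unadjusted p under 0.05 the counts were 3458 probe sets (6.56%) and 1203 genes (8.51%), 428 higher and 775 lower. The count rested on single arrays: leaving out 1 array gave between 1 and 21 calls, with 21 (12 higher, 9 lower) without mid-late replicate 1 and 1 without mid-late replicate 3 or replicate 4. With the term for the mitochondrial split 1 probe set remained.

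HIPK2 encodes a serine/threonine kinase of the nucleus that acts on transcription factors and on regulators of cell death, including corepressors of the WNT pathway. In its brightest probe set the mid arrays read 10.59, 9.85, 10.01 and 10.28, and the mid-late arrays 9.25, 9.12, 9.01 and 9.21. Every mid-late array lay below every mid array. The transcript fell by 1.04 ± 0.16 (SE; 2.05-fold; limma adjusted p = 0.0460), with a 95% interval from -1.38 to -0.70.

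The other HIPK2 probe sets gave the same direction. All 7 were lower at mid-late, by 0.29 to 1.54, and in 6 of them the 2 stages did not overlap, as was the case with mid-late lower for 2.65% of all probe sets. The largest difference was in the probe set that read 9.30 to 9.91 at mid and 7.98 to 8.32 at mid-late: it fell by 1.54 ± 0.23 (SE; limma adjusted p = 0.0317). A further one fell by 1.23 ± 0.16 (SE; limma adjusted p = 0.0136), from 9.56 to 10.21 at mid down to 8.28 to 8.70 at mid-late. The 4 that did not pass included 2 whose means were near background. The overlapping one read 4.74 to 6.71 at mid and 4.56 to 5.89 at mid-late.

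**Figure D2:**
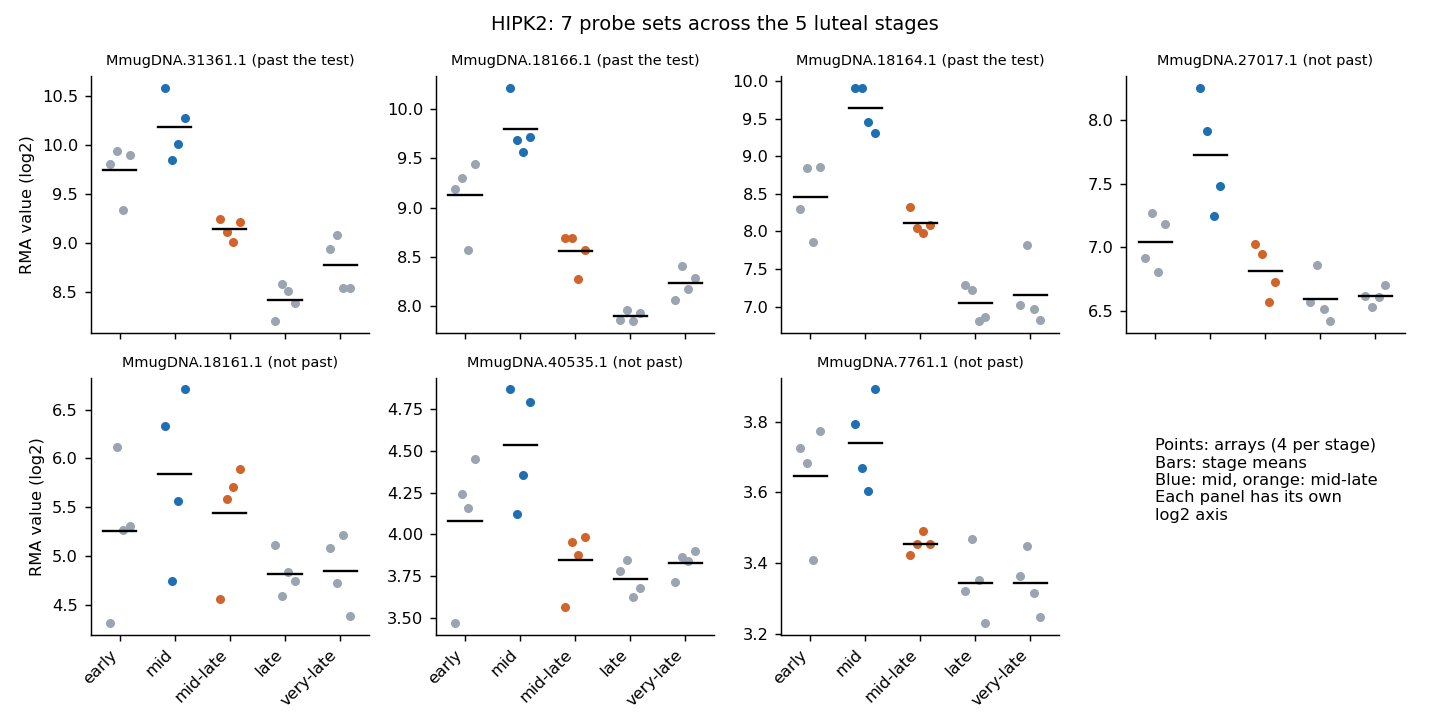
Log2 values of the 7 HIPK2 probe sets in all 20 arrays, by stage, brightest first, with points for arrays and bars for the mean of 4; each panel has its own log2 axis, and the title says whether mid-late against mid passed the test. The mid arrays are the highest stage by mean in every panel, and the mid-late arrays lie below all mid arrays in 6 of 7.

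Across the 5 stages the brightest HIPK2 probe set had means of 9.75 (early), 10.19 (mid), 9.15 (mid-late), 8.43 (late) and 8.78 (very-late). Mid was thus the peak. The early-to-mid difference of 0.44 (limma adjusted p = 0.294) and the mid-late-to-late difference of -0.72 (limma adjusted p = 0.167) did not pass in this probe set. In the probe set with the largest change, mid was above early by 1.18 ± 0.23 (SE; limma adjusted p = 0.0354). The steps share arrays with the mid-late against mid comparison, so a high mid value enters both.

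Mid-late replicate 1, which shared the low mitochondrial level of the mid arrays, read 9.25 in the brightest HIPK2 probe set, outside the mid range of 9.85 to 10.59. Without it the difference was -1.07 (limma adjusted p = 0.0412). With the term for the split all 7 probe sets stayed lower, by 0.22 to 1.11, but 0 passed (smallest limma adjusted p = 0.525). Leaving out mid-late replicate 3 or replicate 4 also left 0 past the test, with smallest limma adjusted p-values of 0.101 and 0.0740, as did a fit on the 8 mid and mid-late arrays alone (0.0552).

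NKAIN1 encodes a small membrane protein that interacts with the sodium pump. Its mid arrays read 4.16, 4.27, 4.26 and 4.02, and its mid-late arrays 3.80, 3.59, 3.51 and 3.59. The groups did not overlap and the value fell by 0.55 ± 0.08 (SE; limma adjusted p = 0.0156), but both means, 4.18 and 3.62, were under the background limit of 4.30. The other stages averaged 3.60 (early), 3.51 (late) and 3.60 (very-late), so the mid glands alone stood higher, and mid exceeded early by 0.58 (limma adjusted p = 0.00410). The call was lost without mid replicate 2 or replicate 3 and without mid-late replicate 2, 3 or 4 (limma adjusted p from 0.0531 to 0.121). It was also lost with the term for the mitochondrial split (limma adjusted p = 0.525) and on the 8 mid and mid-late arrays alone (limma adjusted p = 0.215).

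Of the 2 probe sets without a symbol, MmugDNA.25757.1.S1_at had the smallest adjusted p of the comparison. It read 4.24, 4.30, 4.49 and 4.27 at mid and 3.68, 3.45, 3.55 and 3.51 at mid-late, and fell by 0.78 ± 0.07 (SE; limma adjusted p = 0.000227). Like NKAIN1 it was lower before and after mid, at 3.71 (early) and 3.64 (late), and close to background. MmugDNA.24415.1.S1_at was brighter. It read 5.62, 6.04, 5.80 and 5.43 at mid and 4.83, 4.86, 4.68 and 5.01 at mid-late, and fell by 0.87 ± 0.13 (SE; limma adjusted p = 0.0317). Its early mean of 5.56 was near the mid mean of 5.72, and its late and very-late means of 4.84 and 4.74 were near the mid-late mean of 4.85.

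Genes with large differences that did not pass are given as values only. At an unadjusted p under 0.001 with no overlap between the 8 arrays there were 49 genes (0.347% of those measured), 12 higher (0.0849%) and 37 lower (0.262%). A difference of at least 2-fold was measured in 69 genes (0.488%), whatever their p.

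**Figure D3:**
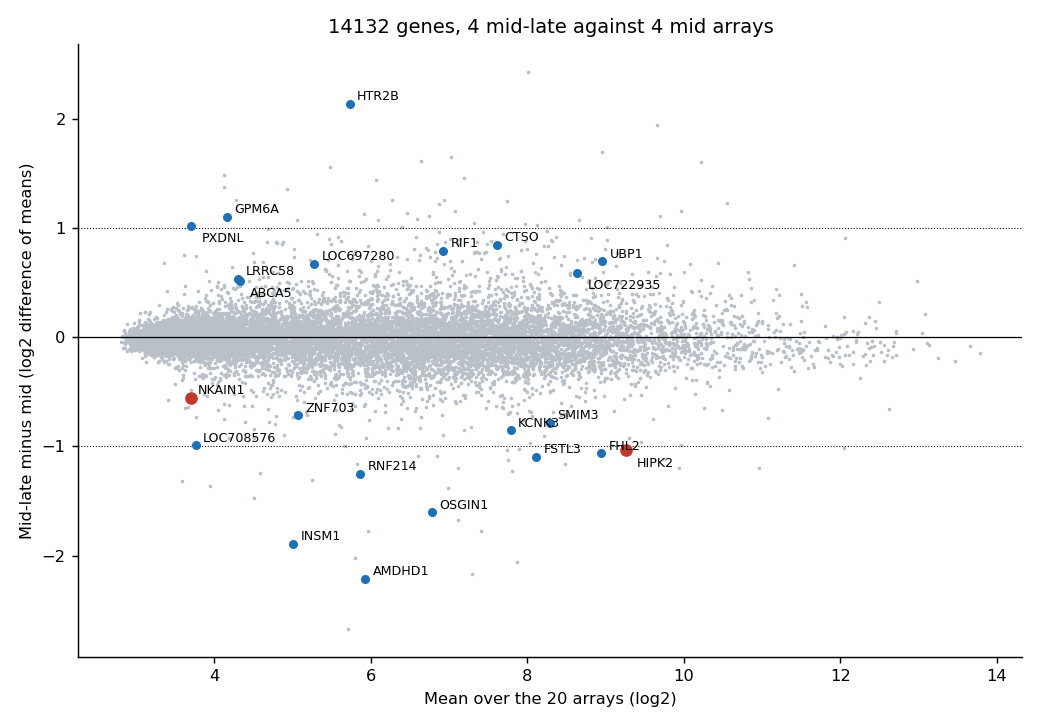
Mid-late minus mid difference (log2) against the mean over the 20 arrays (log2) for 14132 genes; red points passed the test, blue points are the 10 largest differences in each direction among genes that did not pass but had an unadjusted p under 0.001 and no overlap between the stages. Most genes lie close to 0, the dotted lines mark 2-fold, and HIPK2 (-1.04) and NKAIN1 (-0.55) are the 2 genes past the test.

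Among the lower genes, the one closest to luteal hormone action was FSTL3, a secreted protein that binds and blocks activin. It read 9.31, 9.08, 8.79 and 8.85 at mid and 7.78, 8.48, 7.56 and 7.81 at mid-late, a difference of -1.10 ± 0.21 (SE; limma adjusted p = 0.148). Every mid-late array was below every mid array. Its stage means went from 9.70 (early) through 9.01 and 7.91 to 7.14 (late) and 6.80 (very-late). Follistatin (FST), the related activin binder, differed by -0.75 ± 0.36 (SE, limma adjusted p = 0.758), with overlapping arrays. With the term for the mitochondrial split FST measured -0.18.

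The largest of these differences was in AMDHD1, an enzyme of histidine breakdown. Its mid arrays read 9.60, 7.76, 7.90 and 8.58 and its mid-late arrays 7.50, 6.97, 5.09 and 5.44, a difference of -2.21 ± 0.56 (SE; limma adjusted p = 0.380). The mid-late arrays were spread widely, and with the term for the mitochondrial split the difference was -1.08. INSM1, a zinc-finger transcription factor known from neuroendocrine cells, averaged 6.57 at mid and 4.67 at mid-late (difference -1.89, limma adjusted p = 0.366). OSGIN1, a gene induced by oxidative stress, averaged 8.18 and 6.58 (difference -1.60, limma adjusted p = 0.133). The other OSGIN1 probe set differed by only -0.02.

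Others on the lower side were the transcriptional cofactor FHL2, from 9.74 to 8.67, and the acid-sensitive potassium channel KCNK3, from 8.82 to 7.97. RNF214 went from 6.76 to 5.51. ZNF703, a zinc-finger protein, averaged 5.28 and 4.56, and the small membrane protein SMIM3 8.73 and 7.94. All of these had limma adjusted p-values above 0.2, and none of their mid-late arrays overlapped a mid array, which is how they were chosen.

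On the higher side the largest difference among the genes so chosen was in HTR2B, a serotonin receptor. It read 3.85, 5.62, 5.19 and 5.85 at mid and 7.73, 6.69, 7.55 and 7.09 at mid-late, a difference of 2.14 ± 0.48 (SE; 4.40-fold; limma adjusted p = 0.279). Its stage means were 3.91 (early), 5.13, 7.26, 7.21 (late) and 5.16 (very-late), so it was highest at mid-late and late. Mid-late replicate 1 had the highest value of all 8 arrays, and without it the difference was 1.98.

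UBP1, a transcription factor, averaged 8.51 at mid and 9.20 at mid-late and had the smallest unadjusted p of the higher genes named here (difference 0.69 ± 0.13 SE, limma adjusted p = 0.128). CTSO, a lysosomal cysteine protease, averaged 7.07 and 7.91, and RIF1, a protein of DNA replication timing and repair, 6.75 and 7.53. GPM6A, a membrane glycoprotein best known from neurons, averaged 3.44 and 4.54, and PXDNL, a relative of peroxidasin, 3.49 and 4.51, so that the mid value of each was at background. ABCA5, a lipid transporter, averaged 4.29 and 4.80 beside 4.10 in the early and 4.07 in the very-late glands.

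How far the other genes could have moved was read from their 95% intervals, taken gene by gene. The interval lay within a 2-fold change either way for 13474 of 14132 genes (95.3%), and for 5208 of 5648 genes with a mean of at least 6 (92.2%). The median interval reached 0.23 to either side of the difference. The median difference was -0.01 and the median size of a difference 0.09. Single neighbouring steps of the cycle gave 191 calls for mid against early (0.362%), 6 for late against mid-late (0.0114%) and 7262 for very-late against late (13.8%). The 3 steps share arrays with each other or with this comparison, and the differences between their counts were not tested.

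**Figure D4:**
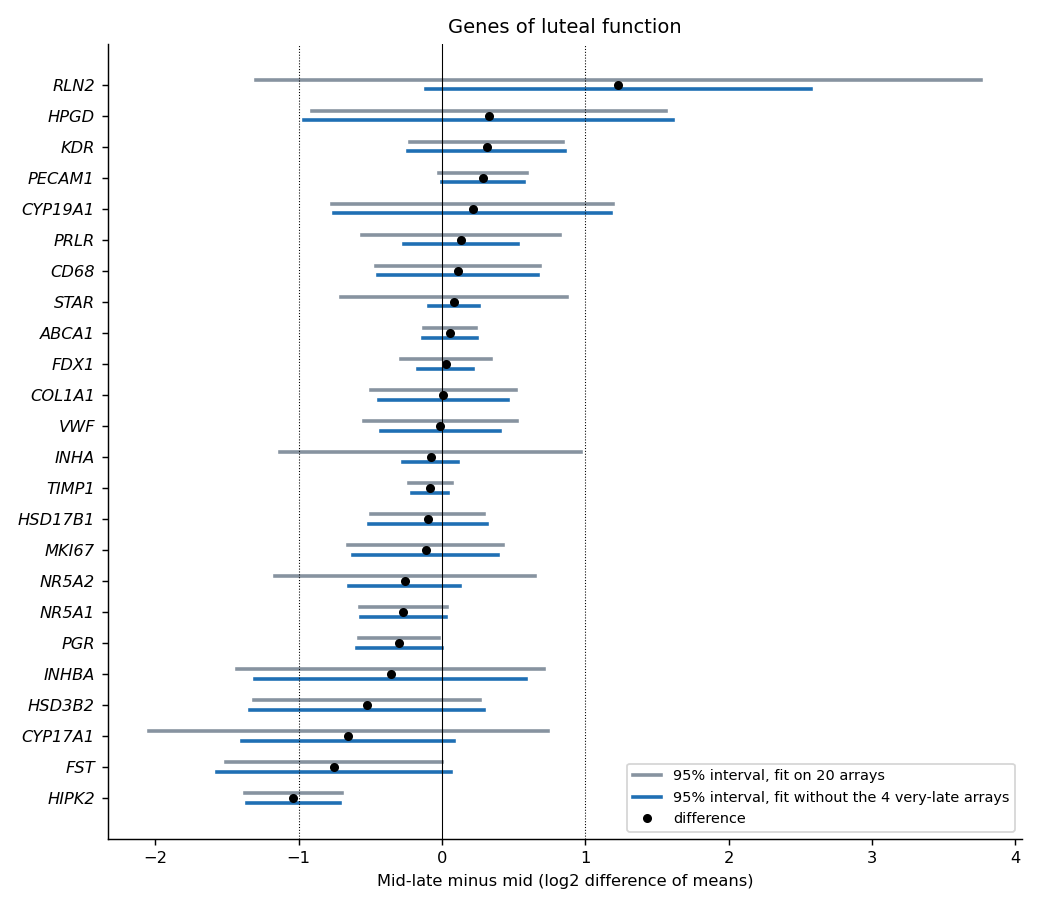
Mid-late minus mid difference (log2) and 95% interval for 24 genes named whatever their result, HIPK2 among them. Intervals are from the fit on 20 arrays (grey) and from the fit without the 4 very-late arrays (blue). Dotted lines mark 2-fold. The intervals of 14 genes lie within 2-fold in the first fit and of 16 in the second, and the interval of STAR narrows from -0.70 to 0.88 in the first to -0.09 to 0.26 in the second.

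Of 32 genes named whatever their result, 24 were measured under a single symbol, and HIPK2 was the only one to pass. The 32 were chosen with earlier results of these data known, so this pass adds no support to the HIPK2 result above. The 95% interval was within 2-fold for 14 of them. That count was 16 in the fit without the very-late arrays, in which 96.2% of all genes had such an interval. In the very-late glands STAR had an SD of 1.26 (n = 4), and this scatter enters the shared spread of the full fit. Genes without such a probe set, among them CYP11A1, LHCGR and VEGFA, were not analysed here.

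The 2 genes that supply the first step of steroid synthesis, STAR and FDX1, were at like levels in both stages. STAR read 13.17, 13.26, 13.40 and 13.20 at mid and 13.51, 13.38, 13.19 and 13.30 at mid-late. The difference was 0.09, with an interval of -0.70 to 0.88 in the full fit and of -0.09 to 0.26 without the very-late arrays. FDX1, the ferredoxin that passes electrons to the mitochondrial cytochromes, averaged 12.33 and 12.36 (difference 0.03, interval -0.29 to 0.34).

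HSD3B2, which makes progesterone from pregnenolone, was less settled. It read 11.93, 11.77, 11.96 and 12.03 at mid and 11.42, 11.79, 10.91 and 11.47 at mid-late. The mid arrays lay close together, and only mid-late replicate 2 reached their range. The difference of -0.52 ± 0.37 (SE; limma adjusted p = 0.879) had an interval from -1.31 to 0.26, so a loss of more than 2-fold lies inside it. The next step, late against mid-late, measured -2.05 (limma adjusted p = 0.0816).

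The enzymes that lead on to androgen and estrogen had wide intervals. CYP19A1, the aromatase, read 11.38, 9.95, 11.71 and 11.74 at mid and 11.92, 10.60, 11.58 and 11.53 at mid-late, with 1 low array in each stage (difference 0.21, interval -0.77 to 1.19). CYP17A1, which makes androgens, averaged 8.11 and 7.46 (difference -0.65, interval -2.04 to 0.74, and -1.39 to 0.09 without the very-late arrays). CYP17A1 measured -1.53 once the term for the mitochondrial split was added. HSD17B1, which makes estradiol, averaged 5.74 and 5.64, with its interval inside 2-fold.

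The steroid synthesis list as a whole had 21 measured members, of which 0 passed, 7 were higher and 14 lower, with a median difference of -0.13 against -0.01 over all genes. At an unadjusted p under 0.05 there was 1 lower (5.48% of all genes). With the term for the mitochondrial split there were 3 lower (4.2% of all genes), and the median was -0.17. The interval was within 2-fold for 16, the exceptions being HSD3B2, CYP17A1, CYP19A1, HSD11B1 and NR5A2. STARD4, a carrier of cholesterol between membranes, averaged 7.89 and 8.44 with no overlap between the stages (difference 0.54, limma adjusted p = 0.529). Of the orphan receptors that switch on steroid genes, NR5A1 averaged 6.64 and 6.37 with every mid-late array below every mid array (difference -0.27, interval -0.57 to 0.04, limma adjusted p = 0.810). NR5A2 averaged 9.70 and 9.45, with an interval of -1.17 to 0.65, and measured -1.15 with the term for the mitochondrial split. The mean level of the list was 8.90 to 9.09 in the mid arrays and 8.77 to 8.98 in the mid-late arrays.

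Of 18 measured genes of cholesterol synthesis 15 were lower, 0 passed, and the median difference was -0.14. At an unadjusted p under 0.05 there were 3 lower, against 5.48% of all genes, and 1 higher. With the term for the mitochondrial split there were 1 lower (4.2% of all genes) and 0 higher, and the median was -0.06. SQLE, the squalene epoxidase, averaged 6.81 and 6.19 (difference -0.62), PMVK, a kinase of the mevalonate route, 6.93 and 6.48, and SCAP, the escort of the sterol-sensing transcription factors, 11.03 and 10.62. INSIG2, which holds those factors back, was the higher one, at 6.22 and 6.63. The limma adjusted p was above 0.5 for each. NPC1, which releases cholesterol from lysosomes, averaged 10.84 and 10.39 with no overlap (difference -0.45, limma adjusted p = 0.665), and the other 4 measured genes of lipoprotein uptake were higher, by at most 0.23. The 11 genes of cholesterol efflux all had intervals within 2-fold, as did 95.3% of all genes, and ABCA1 and RXRA were at background.

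The receptors and the cyclic AMP pathway showed 0 calls among 14 and 25 measured genes, with median differences of 0.07 and -0.05. The prolactin receptor PRLR averaged 7.03 and 7.16 (interval -0.56 to 0.83). PGR, the progesterone receptor, was under the background limit in both stages, at 3.86 and 3.56, so its level could not be followed. RGS2, a brake on G-protein signalling, read 11.17, 11.18, 11.30 and 10.48 at mid and 10.83, 10.04, 8.74 and 10.05 at mid-late. The difference of -1.11 ± 0.40 (SE, limma adjusted p = 0.656) came with an overlap of mid replicate 4 and mid-late replicate 1. With the term for the mitochondrial split RGS2 measured -0.52. RAPGEF4, an exchange factor switched on by cyclic AMP, averaged 7.25 and 8.02 with no overlap (limma adjusted p = 0.750), and the phosphodiesterase PDE4B 6.38 and 6.85.

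Hormones other than steroids were described by inhibin, activin and relaxin. The inhibin alpha subunit INHA averaged 12.31 and 12.23 (difference -0.08, interval -0.27 to 0.11 without the very-late arrays and -1.13 to 0.97 with them), and with the term for the mitochondrial split INHA measured -0.91. The activin subunit INHBA averaged 9.61 and 9.26. RLN2, relaxin, a peptide of the primate corpus luteum, read 10.28, 10.94, 10.84 and 10.51 at mid and 11.75, 11.32, 12.43 and 11.98 at mid-late. The stages did not overlap, but the difference of 1.23 ± 1.20 (SE; limma adjusted p = 0.930) was small against a spread that the early and very-late arrays enlarge. Without the very-late arrays its interval was -0.11 to 2.58. With the term for the mitochondrial split the difference turned to -0.81. The low early and very-late arrays also enter that term, and the very-late arrays had an SD of 3.62. Mid-late replicate 1, low by the split like the mid arrays, read 11.75, above all of them. The stage means of RLN2 were 7.21, 10.64, 11.87, 12.96 and 10.11. Of the 25 measured members of this list 0 passed.

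Prostaglandins regulate the life of the corpus luteum, and HPGD is the enzyme that inactivates them. HPGD averaged 9.09 and 9.42, with an interval of -0.91 to 1.56 that reached past 2-fold on the higher side. The other 10 measured genes of prostaglandin synthesis, breakdown and receptors all had intervals within 2-fold, as did 95.3% of all genes. None of the 11 had an unadjusted p under 0.05, beside 8.51% of all genes. Only 4 of the 11 had a mean of at least 6, and PTGES3, PTGIS and PTGER1 were at background, where intervals are narrow. PTGS2 and PTGFR were not measured under a single symbol.

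The lists of vessels and matrix gave 0 calls. All 16 measured endothelial markers had intervals within 2-fold, with a median difference of 0.02, which was -0.19 with the term for the mitochondrial split. PECAM1, an adhesion molecule of endothelium, averaged 9.48 and 9.77, VWF, the clotting factor carrier of endothelium, 9.60 and 9.59, and KDR, the main receptor of vascular growth factor, 5.10 and 5.41. PECAM1 differed by 0.29, and by 0.03 with the term for the split. Of 24 angiogenic ligands and receptors 22 had intervals within 2-fold, beside 95.3% of all genes. Among the 9 with a mean of at least 6 it was 8, beside 92.2%, and FLT1, FLT4, FGF2, EDN1 and SLIT2 were at background. ECE1, the enzyme that matures endothelin, averaged 8.66 and 8.10 (difference -0.56 ± 0.15 SE, limma adjusted p = 0.391). COL1A1, the main fibrillar collagen chain, averaged 10.98 and 10.99 and TIMP1, an inhibitor of matrix proteases, 13.97 and 13.88, each within 2-fold. Among 22 collagen and matrix genes COL18A1 had the most negative difference, -0.63, with means of 8.06 and 7.43 (limma adjusted p = 0.532). The other COL18A1 probe set was higher at mid-late, by 0.22. The 18 matrix proteases and inhibitors had 0 genes at an unadjusted p under 0.05, but 6 intervals reached past 2-fold. Intervals within 2-fold numbered 12 of these 18 and 19 of the 22 collagen and matrix genes, beside 95.3% of all genes. Of 11 fibroblast markers 7 had such an interval, and their differences ran from -0.39 to 1.48.

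Proliferation and cell death lists gave 0 calls as well. All 18 measured genes of DNA replication and mitosis had intervals within 2-fold (95.3% of all genes had), 15 were lower, and the median difference was -0.13. Only 8 of the 18 had a mean of at least 6, and CCNA2 and CCNE2 were at background. CCNB1, the mitotic cyclin, averaged 6.37 and 5.86 and MKI67, a proliferation marker, 5.53 and 5.41. Of 24 apoptosis genes 22 had intervals within 2-fold, and 7 were at background. The exception by p was BBC3, a death-promoting member of the BCL2 family, at 6.55 and 6.83 with no overlap (limma adjusted p = 0.736).

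For the nuclear genes of protein and energy metabolism the intervals were mostly within 2-fold. All 17 ribosomal protein genes had intervals within 2-fold. In that list 15 were lower, 5 of them at an unadjusted p under 0.05 (5.48% of all genes were), and the median difference was -0.12. RPS15 averaged 11.69 and 11.41 and RPS18 12.66 and 12.50, without overlap in either. The other RPS15 probe set was higher at mid-late, by 0.16. Of 29 nuclear genes of the respiratory chain and ATP synthase 28 had intervals within 2-fold, with a median of -0.02, whereas the mean of the 6 mitochondrial-genome probe sets differed by 3.10. MT2A, a metal-binding stress protein, read 13.24, 13.04, 12.96 and 12.77 at mid and 12.35, 12.28, 11.45 and 11.89 at mid-late (difference -1.01 ± 0.31 SE, limma adjusted p = 0.534), with no overlap. GSTM3, a glutathione transferase, averaged 11.09 and 10.10, while its other probe set differed by only -0.06. The first GSTM3 probe set differed by -0.99, and by -1.71 with the term for the mitochondrial split.

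**Figure D5:**
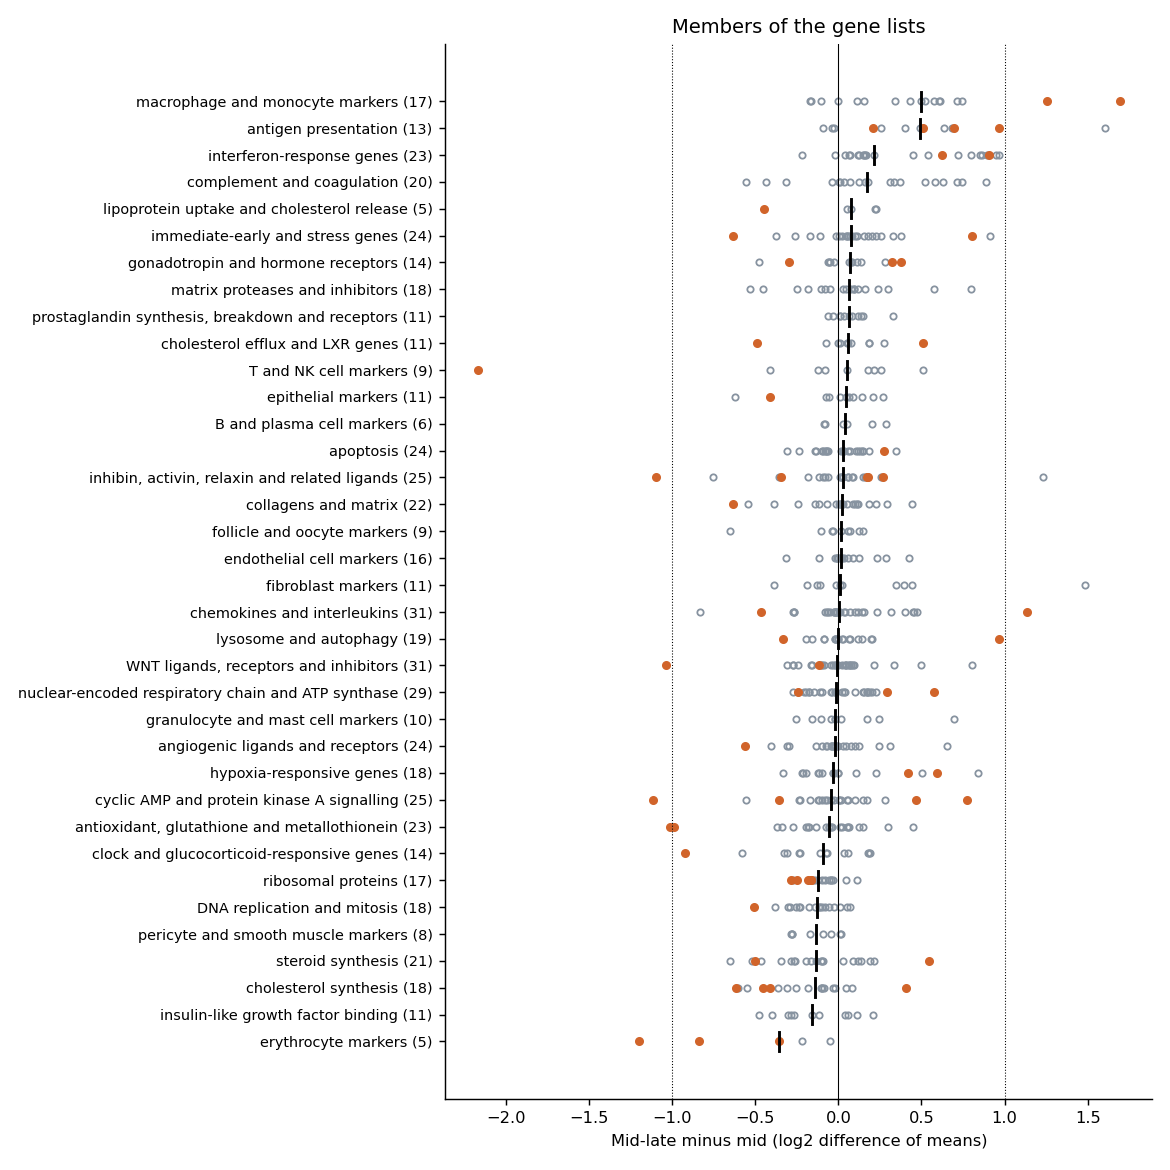
Mid-late minus mid difference (log2) of every measured member of 36 gene lists, with the number measured in brackets; filled orange points have an unadjusted p under 0.05, open points do not, black ticks are list medians and dotted lines mark 2-fold. The medians are -0.13 for steroid synthesis, -0.14 for cholesterol synthesis, and 0.02 for endothelial markers and for collagens and matrix. The macrophage (0.50) and antigen presentation (0.49) lists have the highest medians.

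The lists of macrophage markers, antigen presentation and interferon-response genes had the highest medians, and mid-late replicate 1 had the lowest level of the mid-late arrays in each. Of 17 measured markers of macrophages and monocytes 13 were higher, 0 passed, and the median difference was 0.50. MSR1, MARCO and ITGAM were at background. The mean level of the list was 6.41, 6.18, 6.18 and 5.76 in the mid arrays and 5.83, 6.28, 7.38 and 6.88 in the mid-late arrays. Replicates 1 and 2 of mid-late thus lay within the mid range and replicates 3 and 4 above it. The late arrays lay at 7.14 to 7.53 and the very-late arrays at 8.53 to 8.96.

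Single genes with the smallest p differed in mid-late replicates 2 to 4. LYZ, the lysozyme of phagocytes, read 6.69, 5.81, 6.94 and 6.48 at mid and 6.82, 7.58, 9.51 and 8.80 at mid-late (difference 1.70 ± 0.46 SE, limma adjusted p = 0.423). CD86, a costimulatory molecule of antigen-presenting cells, averaged 5.53 and 6.79. In both genes mid-late replicate 1 was inside the mid range and the other 3 above it. The chemokine CCL3, at 4.59 and 5.72, did likewise, but it comes from a list of 31 chemokines and interleukins with 16 higher, 15 lower, a median of 0.00 and 16 members at background. CD68, a lysosomal marker of macrophages, averaged 7.02 and 7.13. Without mid-late replicate 1 the number of macrophage markers at an unadjusted p under 0.05 was 9 in place of 2, all higher (3.79% of all genes were), and the median 0.81. With the term for the mitochondrial split they were 2, both higher (2.17% of all genes were), and 0.18. No marker passed in either fit.

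Antigen presentation followed a like course, with a median difference of 0.49 over 13 genes, 10 of them higher and 0 past the test. At an unadjusted p under 0.05 there were 4, all higher, against 3.03% of all genes. B2M, the light chain of class I molecules, averaged 12.96 and 13.18 without overlap (difference 0.21 ± 0.07 SE). CD74, the chaperone of class II molecules, averaged 8.69 and 9.39, and CTSS, the protease that trims it, 6.24 and 7.21. The class I gene MAMU-B averaged 12.51 and 13.02, but near-identical class I copies may share its probes. The other MAMU-B probe set was lower at mid-late, with a difference of -0.31. Without mid-late replicate 1 the count was 7 (3.79% of all genes) and the median 0.71. The term for the split gave a count of 2 (2.17% of all genes) and a median of 0.34.

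Of 23 interferon-response genes 21 were higher, 0 passed, and the median difference was 0.22. The list mean was 6.19, 5.89, 6.02 and 6.88 in the mid arrays and 5.97, 6.64, 7.05 and 6.98 in the mid-late arrays. Mid replicate 4 lay among the higher mid-late arrays and mid-late replicate 1 among the lower mid arrays. IFI27 averaged 11.67 and 12.58 and IFIT2 6.63 and 7.25. IFI27 differed by 0.91, and by 0.45 with the term for the split. Without mid-late replicate 1 there were 7 genes at an unadjusted p under 0.05 in place of 2, all higher (3.79% of all genes were), and the median was 0.42. Adding the term for the split gave 1 (2.17% of all genes), with a median of 0.26.

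Among markers of other blood cells the lower values were in 1 lymphocyte gene and in the erythrocyte list. GNLY, granulysin of the cytotoxic granules of lymphocytes, read 10.06, 9.08, 8.73 and 7.80 at mid and 7.55, 7.30, 6.50 and 5.64 at mid-late. The stages did not overlap, yet the arrays within each stage were spread widely, and the difference of -2.17 ± 0.64 (SE) had a limma adjusted p of 0.504. The other GNLY probe set differed by only -0.13. Of the 9 measured T and NK cell markers 5 were higher and 4 lower, with a median of 0.05. All 5 erythrocyte markers were lower, with a median of -0.36. The hemoglobin chains HBB (7.57 and 6.74, no overlap) and HBA (11.25 and 10.05) and the heme enzyme ALAS2 (6.07 and 5.72) had an unadjusted p under 0.05, as did 5.48% of all genes on the lower side, and none passed. With the term for the mitochondrial split 0 of the 5 were under 0.05, the median was -0.19, and HBA and HBB measured -0.50 and -0.43. The alpha chain genes are near-identical copies, so HBA may stand for more than 1 gene. Of 10 granulocyte and mast cell markers 9, and of 6 B and plasma cell markers 5, were at background.

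The list of WNT ligands, receptors and inhibitors, which holds HIPK2, had 31 measured members. HIPK2 was its only call, 15 were at background, and the median difference was -0.01. The members were chosen with earlier results of these data known, so this call is no separate support for HIPK2. Among immediate-early and stress genes ZFP36, which destabilises inflammatory messages, averaged 8.04 and 8.85 without overlap (limma adjusted p = 0.690), and GADD45B, a stress sensor, 7.65 and 7.02. FKBP5, a gene induced by glucocorticoids and progesterone, averaged 5.38 and 4.46 (difference -0.92, limma adjusted p = 0.492). P4HA1, a hypoxia-induced collagen hydroxylase, averaged 8.03 and 8.62 (difference 0.59, and 0.14 with the term for the mitochondrial split).

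Over all 37 lists, 596 of 869 listed genes were measured and 1, HIPK2, passed. At an unadjusted p under 0.05 there were 58 of them, 25 higher and 33 lower, which is 9.73% beside 8.51% of all genes. The interval was within 2-fold for 487 (81.7%), beside 95.3% of all genes. Among genes with a mean of at least 6 it was 285 of 371 (76.8%) beside 92.2%.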

How the data were processed

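Total RNA of 20 corpora lutea was hybridised to Affymetrix rhesus arrays. The deposited log2 values come from RMA, as the submitters' processing notes state; their version and chip definition are not given in the sources used here. The values run from 2.48 to 14.28 and were used as they stand. The table holds 52865 probe sets, and 158 of these, controls of the array, were dropped. Symbols came from the platform annotation: 24956 probe sets had 1 symbol, 361 several and 27390 none, and 340 identifiers matched no current gene. A gene's probe set with the highest mean over 20 arrays represents it.

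In R 4.3.3, limma 3.58.1 fitted 5 stage means to all 20 arrays (15 residual and 2.75 prior degrees of freedom), and the two-sided mid-late minus mid contrast was adjusted by Benjamini-Hochberg over 52707 probe sets. Array measures used exact permutation tests. The procedure was tested on simulated data. The number of arrays limits the precision.

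Named genes were those past the test, the 10 largest differences in each direction at an unadjusted p under 0.001 without overlap, up to 4 members of each list with the smallest p if under 0.05, 32 fixed genes and 2 probe sets without a symbol; 97 genes met this rule and the text names some. The members, lists and rule were chosen with earlier results of these data known. The list of 26 mitochondrial-genome symbols matched no probe set by symbol, so 6 probe sets named for that genome were used. No promoter or protein sequence was used. Alternatives were other scalings, filters, priors, weights, probe set rules, thresholds and subsets of arrays, a replicate block and a term for the mitochondrial split.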

Additional observations from a re-analysis of the deposited data

Results flagged for a closer look

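In 12 of 194 combinations of a named gene and a stage, and in 2 of 10 of an array measure and a stage, 1 of the 4 arrays lay far from the other 3, with a gap to the nearest that made up nearly the whole range of the group. Chance gives about 1 in 20. Neither HIPK2 nor NKAIN1, by its brightest probe set, was among them.

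The mean of the mitochondrial-genome probe sets was 8.12 in mid-late replicate 1, low against the other 3 mid-late arrays. The 3-prime minus 5-prime difference of ACTB, a measure of RNA integrity, was 0.97 in mid replicate 2, high for its stage, where the lowest array was at -0.02. Mid-late replicate 1 was also apart in BBC3 (7.02, high), LOC708576 (4.11, high) and PECAM1 (9.39, low). Mid replicate 2 was apart in HSD17B1 (5.88, high), PECAM1 (9.77, high) and PRLR (6.72, low).

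The remaining cases were single genes. ACVR2A, an activin receptor, was high in mid replicate 1 (3.60) and RGS2 low in mid replicate 4 (10.48). LPCAT3, a phospholipid enzyme, was high in mid-late replicate 2 (8.42), where ZFP36 was low (8.48). WNT11 was low (3.43) and WT1 high (6.98) in mid-late replicate 4.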

How the results depend on the processing

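The count of 6 probe sets past the test, all lower, was 26 (11 higher, 15 lower) with array weights, 2 with 1 probe set per gene or with probe sets averaged within a gene, 3 with a minimum of 2-fold, and 1 each at an adjusted p under 0.01 and with a term for the mitochondrial split. On only the 8 mid and mid-late arrays 1 passed, which was 0 of the 6. A trended and robust prior, or leaving out the very-late arrays, added 1 higher call. Leaving out 1 array gave 1 to 21 calls, 0 to 12 of them higher and 1 to 9 lower. The labels do not say whether a replicate number is shared between stages. Same-numbered arrays of the mid and mid-late stages correlated in their deviations at -0.11 to 0.13, which cannot settle it. With the number as a block 4 probe sets passed, all lower. Genes with intervals within 2-fold numbered 6850 of 7403 without dim probe sets, from 13474 of 14132. The other settings gave 13112 to 13665.

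Over 22 settings and 97 named genes there were 2119 values: 2087 stayed on their side of the test, 21 lost a call, 8 gained one, 3 moved and 0 calls turned; 9 genes that did not pass changed sign. The brightest HIPK2 probe set kept its direction, from -1.15 to -0.85, but passed in 10 of 22 (limma adjusted p 0.00398 to 0.763). NKAIN1 passed in 12 of 21 settings that measured it. With the mitochondrial term STAR turned to -0.17, PRLR to -0.14 and RLN2 to -0.81. NR5A2, INHA and CYP17A1 measured -1.15, -0.91 and -1.53 with it. In the very-late arrays, which also enter that term, the SDs of RLN2, NR5A2, INHA and CYP17A1 were 3.62, 1.37, 1.69 and 1.99. Gains were in FSTL3 (1 setting), HTR2B, LRRC58, OSGIN1, PXDNL and UBP1. The cause of these changes was not tested. With 4 arrays a stage, probe sets near background limit what could be seen.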

Other observations

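The 21 probe sets past the test without mid-late replicate 1 were looked at after the result was known. With symbols, beside HIPK2 and NKAIN1, they were SYNJ2BP, an outer mitochondrial membrane protein (difference 0.94, limma adjusted p = 0.0311), the class I histocompatibility gene MAMU-F (1.59, limma adjusted p = 0.0412), LRRC58 (0.61, limma adjusted p = 0.0412), DNLZ, a chaperone of mitochondrial heat-shock protein (-0.97, limma adjusted p = 0.00952), and RASGRP2, an exchange factor of blood cells (-0.50, limma adjusted p = 0.0419). SYNJ2BP read 8.65, 8.65, 8.75 and 9.17 at mid and 9.66, 9.79 and 9.77 in mid-late replicates 2 to 4, with 8.61 in replicate 1. DNLZ read 5.82 to 6.47 at mid and 5.10 to 5.32 in those 3 arrays, with 5.91 in replicate 1. MAMU-F read 4.69 to 5.87 at mid, 6.57 to 7.12 in the 3 arrays and 5.42 in replicate 1, and near-identical class I copies may share its probes. The brightest MAMU-F probe set, over all 8 arrays, averaged 7.09 and 7.00 (difference -0.09).

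In SYNJ2BP, MAMU-F, DNLZ and RASGRP2 mid-late replicate 1 was near the mid arrays, while in the 3 HIPK2 probe sets past the test it lay with the other mid-late arrays. This contrast follows in part from how they were chosen. The 4 genes passed with that array left out but not in the main fit, while the HIPK2 probe sets passed with it in. The 3 high mid-late arrays are also those high in the mitochondrial-genome probe sets, and whether stage or that split goes with these 4 genes cannot be told apart.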
